A study of Bos taurus with 15 samples.

Results

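Goblet cells of the newborn (NB) cattle intestine were examined in 6 single-cell RNA sequencing libraries, 3 from the small intestine (duodenum, jejunum and ileum) and 3 from the large intestine (cecum, colon and rectum). A cell was taken as a goblet cell when its barcode held 500 to 4000 genes, fewer than 50000 unique molecular identifiers (UMIs), at least 1 UMI of *EPCAM* and 0 of *PTPRC*, and when *TFF3*, *SPINK4* and *CLCA1* together gave at least 0.5% of its UMIs. The rule also names *FCGBP*, which was not matched by symbol and is not analysed here, so 3 of 4 marker genes were used. By this rule 818 of 9110 epithelial barcodes (*EPCAM* present, *PTPRC* absent) were goblet cells, out of 66807 barcodes in the 6 libraries and 172405 in the 15 libraries of the series. Because the cells were chosen by the levels of *TFF3*, *SPINK4*, *CLCA1*, *EPCAM* and *PTPRC*, the values of these 5 genes are given as a description and were not tested.

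Goblet cells are the mucus-secreting cells of the gut epithelium. They differentiate from crypt progenitors in which Notch signaling is low and the transcription factor ATOH1 is active, and SPDEF then drives their maturation. Their granules hold heavily O-glycosylated mucins, trefoil factors, and other proteins that form the mucus layer between the epithelium and the luminal bacteria, and the mucus of the small and the large intestine differs in thickness and attachment. Paneth cells, a neighboring secretory cell type of the small intestinal crypt, are known for lysozyme, secretory phospholipase A2, and other antimicrobial proteins.

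The study compared digestive tissues of NB and adult Holstein cattle, and the question here is how goblet cells of the NB small and large intestine differ. The labels give each library by tissue, breed and the newborn stage, with no treatment and 1 library per tissue. The study collected tissue from 3 NB calves, whose exact age and whose share in each library are not given in the sources used here. The 6 tissues were treated with EDTA and trypsin and then with a lamina propria dissociation kit, and the cells were captured with the 10x Genomics 3′ chemistry (version 3 reagents), which counts 3′ tags, so counts are not scaled by transcript length. Each library is a different gut segment. The 3 libraries of a region were treated as its replicates, so the p-values measure the spread between segments, from which calf and library cannot be told apart. Total UMIs ranged from 62529511 to 117505536 per library. The goblet cells had 3012677, 2887856 and 1755698 (small) and 163663, 2312839 and 873639 (large) summed UMIs, in the order duodenum, jejunum, ileum, then cecum, colon, rectum, which is kept in all such lists, with the small intestine first. Their median UMIs per cell ranged from 9760 to 14105 and their median genes from 1675 to 2369. The cecum, with 163663 UMIs from 16 cells, was the thinnest library. No goblet cell barcode occurred in more than 1 library, and 551 of all 66807 barcodes did.

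The 3 marker genes gave a median of 2.30, 2.00 and 1.87 (small) and 2.65, 4.05 and 2.72 (large) percent of the UMIs of a goblet cell. Of the 818 cells, 119 lay below 1% and 148 at or above 5%. Near the threshold, 24 cells lay between 0.5% and 0.6%, and 29 epithelial barcodes with 0.4% to 0.5% were left out. Barcodes of leukocytes (*PTPRC* present, *EPCAM* absent) passed the marker threshold in 3 cases over the 6 libraries. *TFF3*, the trefoil factor of intestinal mucus, had 12706, 5140.5 and 3174 (small) and 6856, 2122 and 2217 (large) counts per 1e+06 goblet cell UMIs (CPM). *SPINK4*, a secreted protease inhibitor of goblet cells, had 16084, 15579 and 17304 (small) and 19473, 46355 and 29712 (large) CPM, and its highest value was that of the colon. *CLCA1*, a secreted metalloprotease of mucus, had 206, 27.4 and 35.3 (small) and 556, 236 and 422 (large) CPM, lowest in jejunum and ileum. The share of goblet cells with at least 1 *TFF3* UMI was 99.5, 99.5 and 92.1 (small) and 93.8, 54.4 and 64.6 (large) percent. Thinned to 2000 UMIs per cell, it was 98.6, 96.4 and 71.9 (small) and 66.7, 38.1 and 50.6 (large) percent, with 1.08% or less of leukocyte barcodes. *TFF3* was thus seen in fewer goblet cells of colon and rectum than of duodenum and jejunum.

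**Figure D1:**
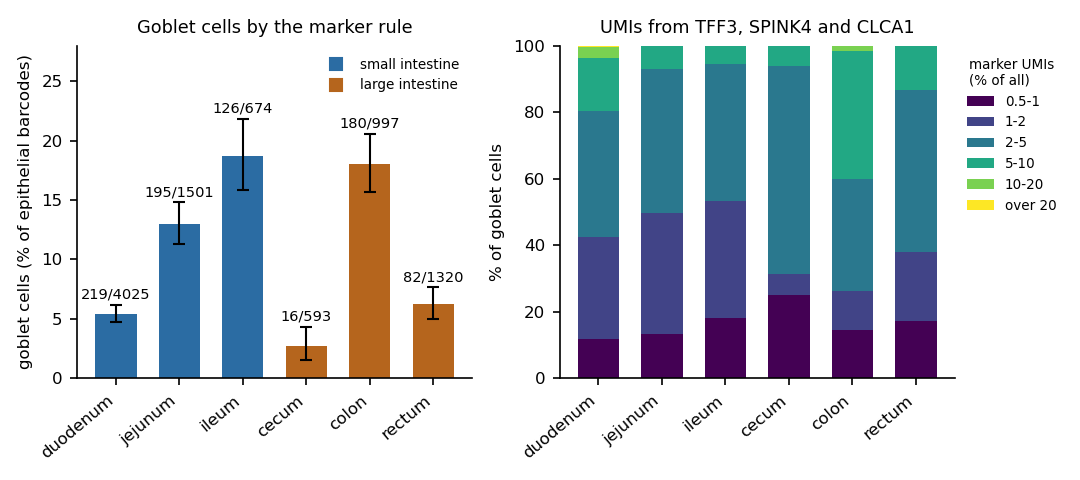
Left, goblet cells as percent of epithelial barcodes in each library, with bars for the share, whiskers for the exact binomial (Clopper-Pearson) 95% interval, and the counts above; right, goblet cells of each library split by the percent of their UMIs from *TFF3*, *SPINK4* and *CLCA1*. The share ran from 2.70% in the cecum to 18.7% in the ileum, and 40% of the colon cells held 5% or more of marker UMIs.

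Goblet cells made up 5.44% of epithelial barcodes in the duodenum (219 of 4025, interval 4.76 to 6.19), 13.0% in the jejunum (195 of 1501, interval 11.3 to 14.8) and 18.7% in the ileum (126 of 674, interval 15.8 to 21.8). In the large intestine the share was 2.70% in the cecum (16 of 593, interval 1.55 to 4.34), 18.1% in the colon (180 of 997, interval 15.7 to 20.6) and 6.21% in the rectum (82 of 1320, interval 4.97 to 7.65). The exact binomial intervals cover counting error only. The mean was 12.4% ± 6.65 (SD, n = 3) in the small and 8.99% ± 8.05 (SD, n = 3) in the large intestine. The groups overlapped, and the difference of 3.39 percentage points was smaller than the spread within each region (two-sided exact permutation test, p = 0.7, where 3 against 3 libraries cannot go below 0.1). With a marker share of at least 5% the difference was -1.73 points, so its direction depended on the threshold.

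Genes that the rule did not use were compared between goblet cells and the other epithelial barcodes. The comparison separates secretory cells from the rest and cannot tell goblet cells from Paneth cells. *SPDEF*, the goblet cell maturation factor, had 258, 145 and 189.7 (small) and 379, 425 and 511 (large) CPM in goblet cells and 9.73 CPM or less in the other epithelial barcodes of each library. *ATOH1*, which commits progenitors to the secretory lineage, had 106, 55.4 and 105 (small) and 97.8, 193 and 141 (large) CPM in goblet cells and at most 11.9 CPM in the others. Both were higher in goblet cells in all 6 libraries, by 4.51 to 5.71 log2 units for *SPDEF* and 2.97 to 4.32 for *ATOH1* (CPM plus a pseudocount of 5). Thinned to 2000 UMIs, 39.0, 26.6 and 23.1 (small) and 40, 51.2 and 64.6 (large) percent of goblet cells had *SPDEF*, against 2.17% or less of the other epithelial barcodes and 0.374% or less of leukocytes. For *ATOH1* the thinned shares were 18.1, 10.9 and 21.5 (small) and 20, 23.8 and 21.5 (large) percent in goblet cells and 1.28% or less in the others. *AGR2*, the disulfide isomerase needed for mucin assembly, stood 2.19 to 4.44 log2 units above the others, *REG4*, a secreted lectin of goblet and endocrine cells, 4.48 to 6.40, *FOXA3* 1.96 to 3.36 and *HEPACAM2* 2.08 to 4.15. The following genes were taken from the 20 whose lowest ratio over the other epithelium was highest. Their being higher in every library was fixed by that choice and is a description. They were *BCAS1* (1.81 to 2.91), *REP15* (1.87 to 2.64), *RAB26*, a GTPase of secretory granules (3.01 to 4.14), and *RAP1GAP* (3.34 to 4.41). *SELENOM*, a selenoprotein of the endoplasmic reticulum (3.09 to 5.60), the kallikrein *KLK1* (2.28 to 5.53), *SLC12A8* (2.03 to 2.80) and *AZGP1* (1.73 to 4.56) were also among them. Of 9219 genes with at least 10 CPM in a library, 54 (0.586%) lay over 2-fold above the other epithelial barcodes in all 6 libraries, which is a description, since the rule used this contrast. Among them were 4 of 13 goblet cell transcription factors and 6 of 24 genes of the mucus protein list at that level. In the mucus protein list 1 gene lay over 2-fold below the other epithelial barcodes in all 6 libraries. *MUC2* and *ZG16* were not matched by symbol and are not analysed here. The 20 genes that stood furthest above the other epithelium also held *LYSB*, *LYZ1*, *PLA2G2A*, *MPTX*, *BPI* and *CFB*, described next. Lysozyme and secretory phospholipase A2 are also known from Paneth cells, and the part of Paneth cells among the goblet cells was not tested.

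**Figure D2:**
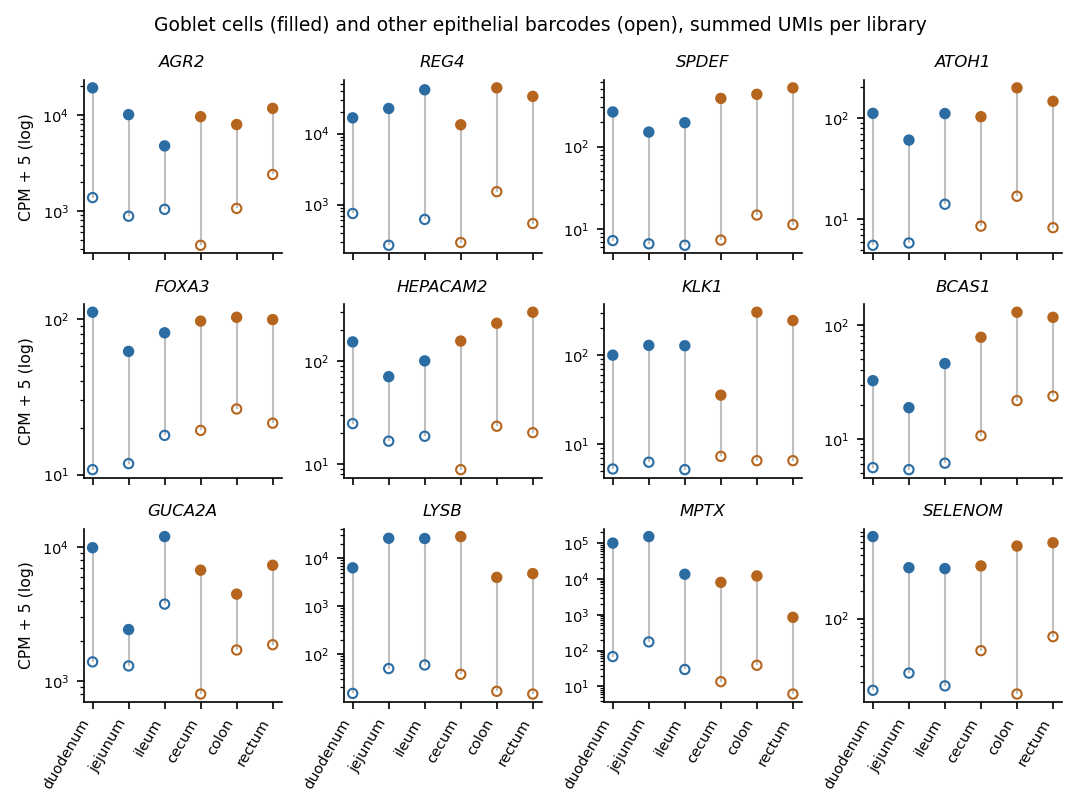
CPM plus 5 on a log axis, from summed UMIs, of 12 genes in goblet cells (filled circles) and in the other epithelial barcodes (open circles) of each library; small intestine in blue, large intestine in orange, and a gray line joins the points of a library. The filled circle lies above the open one for each gene in all 6 libraries, and *MPTX* spans from 840 to 151546 CPM among the goblet cells of the 6 libraries.

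Defense proteins took a large part of the goblet cell RNA, most of all in the small intestine. *MPTX*, a mucosal pentraxin, gave 9.98, 15.2 and 1.35 (small) and 0.799, 1.21 and 0.0840 (large) percent of goblet cell UMIs, and at most 0.0169% in the other epithelial barcodes and 0.0122% in leukocytes. *REG3G*, a secreted lectin that binds Gram-positive bacteria, gave 6.80, 13.8 and 9.82 (small) and 0.00550, 0.00255 and 0 (large) percent. *PLA2G2A*, a secreted phospholipase that attacks bacterial membranes and is listed under a pair of identifiers, gave 11.3, 15.9 and 12.1 (small) and 2.22, 3.33 and 1.54 (large) percent over both. *REG3G* and *PLA2G2A* were higher in each small intestinal library than in any large intestinal one, and so was *MPTX*, whose ileum value lay close to that of the colon. *LYSB*, a lysozyme, gave 0.631, 2.62 and 2.58 (small) and 2.84, 0.398 and 0.478 (large) percent, with high values in jejunum, ileum and cecum and overlapping regions. *LYZ1*, another lysozyme, gave 0.0184, 0.0162 and 0.0165 (small) and 1.70, 0.160 and 0.323 (large) percent and was highest in the cecum. The antimicrobial and defense list summed to 201224, 321658 and 263482 (small) and 45435, 84666 and 60050 (large) CPM in goblet cells, with each small intestinal library above each large intestinal one. *REG4* gave 1.66, 2.25 and 4.13 (small) and 1.33, 4.40 and 3.34 (large) percent and *AGR2* 1.90, 1.00 and 0.474 (small) and 0.954, 0.790 and 1.16 (large) percent, both with overlapping regions.

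In the small intestine the defense genes were seen in most goblet cells. The median goblet cell held 3.33, 13.3 and 7.99 (small) and 0, 0 and 0 (large) percent of its UMIs from *REG3G*, 8.01, 14.7 and 11.1 (small) and 1.63, 2.46 and 1.02 (large) percent from *PLA2G2A* and 4.19, 14.1 and 0.753 (small) and 0.264, 0.540 and 0 (large) percent from *MPTX*. *REG3G* passed 1% of UMIs in 141 of 219 duodenal, 186 of 195 jejunal and 90 of 126 ileal goblet cells, and in 0, 1 and 0 cells of cecum, colon and rectum. Thinned to 2000 UMIs, 80.5, 97.4 and 77.7 (small) and 0, 0 and 0 (large) percent of goblet cells had *REG3G*. Small intestinal leukocytes had it in 8.20%, 10.6% and 12.9% of barcodes and the other epithelial barcodes in 8.48%, 15.9% and 13.2%. In CPM the leukocytes had 36.5, 95.3 and 54.8 and the other epithelium 57.4, 290.4 and 138, so *REG3G* was also seen in leukocytes, which should lack it. *TFF2*, a trefoil factor, varied by library, with 0.246, 0.000727 and 0.000285 (small) and 0.187, 2.27 and 0.461 (large) percent of UMIs, and 56 of 180 colon cells, 8 of 82 rectal cells, 3 duodenal cells and 1 cecum cell held over 1%.

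**Figure D3:**
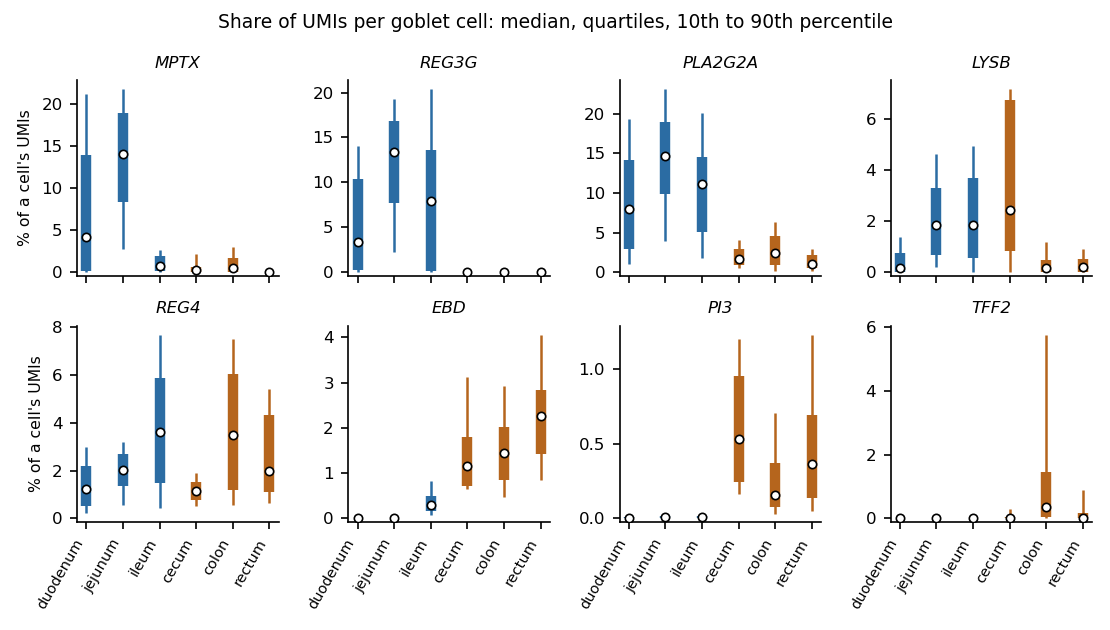
Percent of a goblet cell's UMIs from 8 genes in each library, with a white point for the median cell, a thick bar for the middle quartiles and a thin line from the 10th to the 90th percentile; small intestine in blue, large intestine in orange. *REG3G* and *PLA2G2A* (both identifiers summed) are high in the small intestine, *EBD* and *PI3* in the large intestine, and *TFF2* in part of the colon cells.

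Summed over goblet cells, 7918 genes were tested between small and large intestine with edgeR's quasi-likelihood test, at a false discovery rate (FDR, Benjamini-Hochberg) of 0.05. In the small intestine 106 genes (1.34%) were higher and in the large intestine 120 (1.52%), and 1318 had an unadjusted p under 0.05. The median log2 difference, small over large, was 0.01. The counts rested on single libraries: without duodenum, jejunum, ileum, cecum, colon or rectum in turn, 53, 50, 204, 61, 30 and 25 genes were higher in the small intestine and 43, 47, 161, 76, 38 and 34 in the large intestine. For the region test, levels are given as scaled CPM, that is CPM on UMI totals adjusted by the trimmed mean of M values (TMM), with factors from 0.619 in the jejunum to 1.30 in the rectum. With plain UMI totals in place of TMM, 95 and 438 genes passed and the median difference was -0.48, so modest differences are read against that shift. The 12 genes in each direction with the smallest p, no overlap between regions and a symbol were taken as the named genes, all but 1 of which are described here, and 23 of these 24 passed in each fit that left out 1 library.

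Among the genes higher in the small intestine, *REG3G* had 69642, 225601 and 104738 (small) and 47.0, 23 and 0 (large) scaled CPM (log2 difference 12.79 ± 1.39, FDR 0.00231). The regions were far apart, with 0 to 59 *REG3G* UMIs per large intestinal library. The second *PLA2G2A* identifier (ENSBTAG00000005759) had 51731, 139728 and 56189 (small) and 15.7, 94.6 and 27.7 (large) scaled CPM (log2 difference 10.67 ± 0.90, FDR 0.000606). The first one (ENSBTAG00000002700) had 64219, 119236 and 72394 (small) and 18981, 29882 and 11977 (large) scaled CPM (log2 difference 2.07 ± 0.44, FDR 0.0399), and passed in 1 of 6 fits that left out a library. Both identifiers carry the same symbol and may share reads, so the split of UMIs between them is uncertain. *CFB*, the protease of the alternative complement pathway, had 7163, 6935 and 4424 (small) and 240.1, 568 and 294 (large) scaled CPM (log2 difference 4.06 ± 0.42, FDR 0.00192), and *C5*, the start of the terminal pathway, had 70.0, 79.6 and 72.3 (small) and 0, 5.06 and 0 (large) (log2 difference 4.55 ± 0.52, FDR 0.00267). Small intestinal goblet cells had *C5* in 44.7, 32.3 and 35.7 percent, and the other epithelial barcodes there in 50.1, 32.2 and 34.9 percent. *C3*, the central complement protein, was higher by 1.97 log2 units (FDR 0.0144), a call lost without colon or rectum.

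The other genes named for the small intestine had varied roles. *CLDN15*, a claudin that forms cation pores in small intestinal tight junctions, had 174, 265 and 241 (small) and 26.1, 2.34 and 2.68 (large) scaled CPM (log2 difference 5.69 ± 0.64, FDR 0.00266). Small intestinal goblet cells had it in 68.9, 74.9 and 75.4 percent, and the other epithelial barcodes there in 67.9, 65.2 and 45.1 percent. *CPS1*, the first enzyme of the urea cycle, had 113, 147 and 39 (small) and 0, 1 and 0 (large) UMIs, a ratio of 183 with a counting interval of 32.5 to 7233 over all libraries of a region, and its call was lost without colon (FDR 0.0768). In the other epithelial barcodes *CPS1* was seen in 35.0% to 69.0% of small intestinal barcodes, more often than in the goblet cells, at 14.3% to 19.0%. *PLAC8* differed by 5.44, *SERPINF2*, the plasmin inhibitor, by 4.15, the kinesin *KIF19* by 3.84, the homeodomain protein *HOPX* by 2.51 and *BOLA*, a class I MHC symbol with several near copies in cattle, by 2.31 log2 units. *SERPINF2* and *KIF19* were seen in 22.2% to 35.7% of small intestinal goblet cells and in 2.91% or less of the other epithelial barcodes of each library. *PLAC8* was seen in 26.0, 55.4 and 52.4 percent of small intestinal goblet cells and in 56.1, 56.5 and 8.04 percent of the leukocyte barcodes there.

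The genes named for the large intestine included 3 beta-defensins. *DEFB1* had 0, 0 and 0 (small) and 11, 472 and 144 (large) UMIs, a ratio of 342 against a floor of 3 counts over the small intestinal libraries (log2 difference -10.82 ± 0.78, FDR 0.00107). The lower end of its two-sided 95% counting interval was 278. *DEFB13* had 0, 0 and 0 (small) and 26, 568 and 912 (large) UMIs, a ratio of 822 against the same floor, with a lower end of 668 (log2 difference -12.41 ± 1.24, FDR 0.00309). *DEFB7* had 0, 0 and 1 (small) and 60, 1584 and 1129 (large) UMIs, a ratio of 4543 with a counting interval of 815 to 1.8e+05 (log2 difference -11.45 ± 0.77, FDR 0.000135). The 3 defensins were thus at 0 or 1 UMI per library in small intestinal goblet cells. The other epithelium held them too, with *DEFB7* in 48.5% to 77.0% and *DEFB13* in 28.2% to 51.1% of the other large intestinal barcodes, and leukocytes had *DEFB7* in 10.9% to 33.1% of barcodes. *WFDC18*, a whey acidic protein domain gene, had 0, 1 and 0 (small) and 189, 1522 and 2132 (large) UMIs, a ratio of 6296 with a counting interval of 1129 to 2.5e+05. *PI3*, the elastase inhibitor elafin, had 46.2, 161 and 114 (small) and 5454, 2515 and 4249.8 (large) scaled CPM (log2 difference -5.25 ± 0.53, FDR 0.00189). The other large intestinal epithelial barcodes had *WFDC18* in 48.9, 41.7 and 60.3 percent and *PI3* in 64.0, 78.1 and 75.6 percent. They had *DEFB1* in 17.0, 29.5 and 23.6 percent. All 5 genes, the 3 defensins, *WFDC18* and *PI3*, kept their call in each fit that left out 1 library.

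*FUT6*, a fucosyltransferase, had 1.02, 0.564 and 2.43 (small) and 188, 349.9 and 825 (large) scaled CPM (log2 difference -8.42 ± 0.71, FDR 0.000606) and was seen in 67.2% to 96.3% of large intestinal goblet cells. The other large intestinal epithelial barcodes had it in 30.6% to 62.2%. *CHST4*, which adds sulfate to N-acetylglucosamine, had 2, 0 and 0 (small) and 3, 179 and 94 (large) UMIs, a ratio of 226 with a counting interval of 62 to 1876 (log2 difference -7.40 ± 0.69, FDR 0.00107). Large intestinal goblet cells had it in 18.75, 46.1 and 52.4 percent, and the other epithelial barcodes in 10.9, 22.0 and 32.2 percent. *GALNT17*, of the family that starts O-glycans, had 1.36, 0 and 0.607 (small) and 20.9, 30.4 and 21.4 (large) scaled CPM (log2 difference -4.93 ± 0.53, FDR 0.00231). *SLC35A3*, which carries UDP-N-acetylglucosamine into the Golgi, had 38.1, 35.0 and 40.1 (small) and 146, 133 and 143 (large) scaled CPM (log2 difference -1.89 ± 0.21, FDR 0.00243), with a narrow spread within each region. *TSPAN1*, a tetraspanin, differed by -5.01, *RBP4*, the retinol carrier, by -2.26 and *SPTSSB*, a subunit of serine palmitoyltransferase, by -5.54 log2 units, the last on 2 UMIs in the small intestine, with a counting interval of 13.9 to 442 for a ratio of 52.4. In the large intestine *TSPAN1* was seen in 56.25, 27.2 and 32.9 percent of goblet cells and in 53.4, 34.3 and 54.7 percent of the other epithelial barcodes. For *SPTSSB* the shares were 6.25, 6.67 and 18.3 against 36.7, 26.9 and 48.9 percent. *RBP4* had 43.75, 41.7 and 47.6 against 9.01, 5.88 and 15.3 percent. With goblet cells of at least 5% marker UMIs, 19 of the 24 named genes could be tested and 17 passed, while *BOLA* (FDR 0.0528) and *RBP4* (FDR 0.17) did not.

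**Figure D4:**
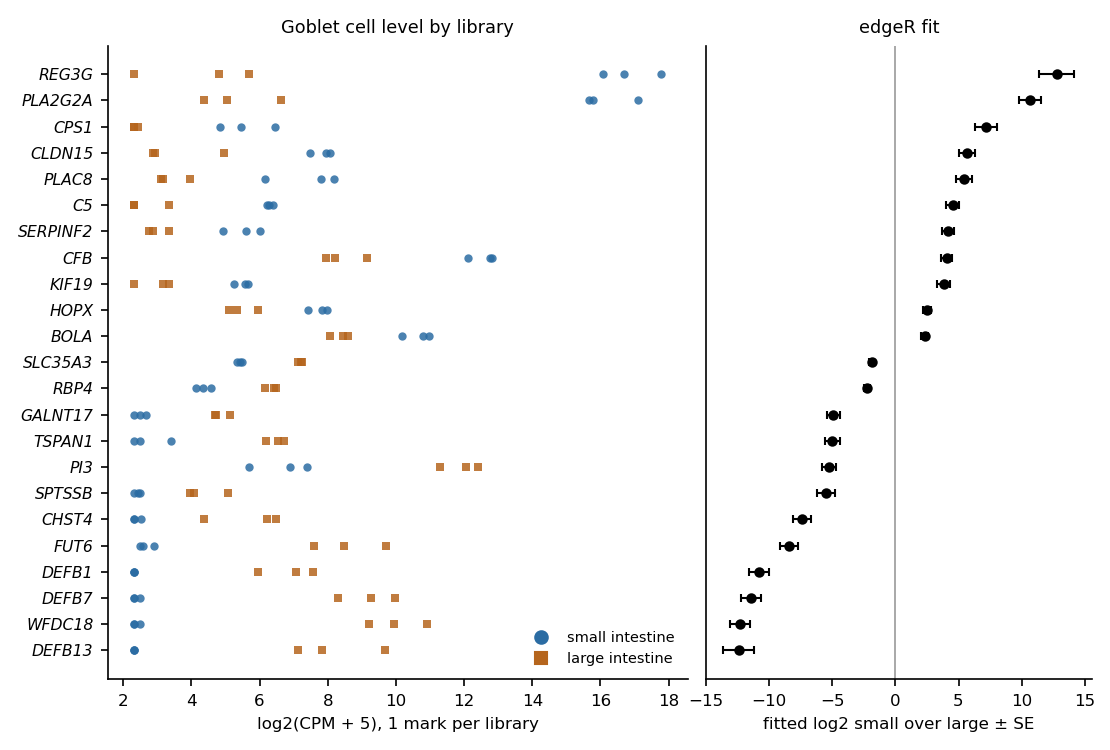
Left, log2 of scaled CPM plus 5 for all but 1 of the 24 named genes, 1 mark per library (blue circles, small intestine; orange squares, large intestine); right, the fitted log2 difference, small over large, with whiskers of 1 SE. No gene's marks overlap between regions, *REG3G* and *PLA2G2A* (second identifier) lie furthest to the right and *DEFB13* and *WFDC18* furthest to the left; fitted values of genes at or near 0 UMIs in a region depend on the model and are not bounds.

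The mucus protein list held 19 tested genes, of which 4 were higher in the large and 0 in the small intestine (median log2 difference -0.67, 0.01 over all genes), beside 1.52% of all genes called in that direction. They were *MUC1*, a membrane mucin (-2.28, FDR 0.0125), *BCAS1* (-1.55, FDR 0.0278), *LRRC26*, a potassium channel subunit (-1.46, FDR 0.0486), and *GALNT12*, which starts O-glycans (-1.05, FDR 0.043). *MUC1* had 46.2, 22.0 and 16.4 (small) and 162, 120.3 and 147 (large) scaled CPM, without overlap. The number passing was 0 without the rectum, 1 without colon or jejunum, 2 without the duodenum, and 8 with plain UMI scaling. The 19 tested genes summed to 23515, 17854 and 7119 (small) and 11711, 31283 and 17317 (large) scaled CPM. These sums overlapped, but they came mostly from *AGR2* and *TFF2*, given below, and do not speak for the list as a whole. The median of the list was negative in every alternative. It ran from -1.14 with plain UMI scaling (-0.48 over all genes) to -0.50 without the rectum. An unadjusted p under 0.05 was found for 10 of the 19 genes (1318 of 7918 over all genes). Of the 4 called genes, *MUC1* is the only mucin. *AGR2* had 19492, 16325 and 5050.4 (small) and 8152, 7113 and 9072 (large) scaled CPM and *TFF2* 2521, 11.9 and 3.04 (small) and 1597, 20416 and 3590.4 (large), and both differed by less than the spread between libraries (FDR 0.457 and 0.403). *SYTL2* (-1.17, FDR 0.0695), *WFDC2* (-1.79, FDR 0.154) and *HEPACAM2* (-0.67, FDR 0.253) did not pass either.

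Of 36 tested genes for mucin O-glycosylation, 9 were higher in the large and 0 in the small intestine (median -0.63, 0.01 over all genes), beside 1.52% of all genes called higher in the large intestine. Besides *CHST4*, *SLC35A3* and *GALNT12*, they were *GALNT6*, which also starts O-glycans (log2 difference -1.92 ± 0.25, FDR 0.00456), the chain-extending enzymes *B3GNT3* (log2 difference -2.52 ± 0.40, FDR 0.0126) and *B4GALT4* (log2 difference -2.23 ± 0.46, FDR 0.0367), the sialyltransferases *ST3GAL4* (log2 difference -2.40 ± 0.44, FDR 0.0229) and *ST6GALNAC6* (log2 difference -2.42 ± 0.34, FDR 0.00618), and *UGP2*, which makes UDP-glucose (log2 difference -1.46 ± 0.26, FDR 0.0179). *GALNT6* had 9.18, 9.03 and 7.90 (small) and 36.5, 32.7 and 33.0 (large) scaled CPM and *ST6GALNAC6* 10.9, 13.0 and 26.1 (small) and 62.6, 96.9 and 91.0 (large), and the large intestinal libraries lay above the small intestinal ones in both. *GALNT6*, *CHST4* and *SLC35A3* passed in all 6 fits that left out a library, *ST6GALNAC6* in 5 and *B3GNT3* in 4, while the others passed in 1 or 2. The number passing was 3 without the colon, 4 without the rectum, 5 without duodenum or jejunum, and 15 with plain UMI scaling. An unadjusted p under 0.05 was found for 18 of the 36 genes. In plain CPM the list summed to 1370, 785 and 1140 (small) and 2022, 2725 and 3492 (large) in goblet cells. The other epithelial barcodes had 1180, 1084 and 1026 (small) and 1409, 1693 and 2053 (large) CPM, also without overlap. In the interaction test given further below, 0 genes of this list passed. On simulated data that test found 72 of 100 genes with a 4-fold interaction, so smaller ones can be missed. The sums of the other epithelium differed in the same direction, and whether the difference was larger in goblet cells was not settled. *GCNT3*, which makes branched mucin cores, had 48.6, 22.0 and 9.72 (small) and 47.0, 155 and 315 (large) scaled CPM and did not pass (FDR 0.0524), and *C1GALT1C1*, the chaperone of core 1 synthesis, had 26.5, 34.4 and 20.7 against 36.5, 27.6 and 27.7 (FDR 0.953).

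None of 13 tested goblet cell transcription factors passed by edgeR or DESeq2 (median -0.29), and 4 had an unadjusted p under 0.05. 1 passed without the ileum or the count filter, higher in the small intestine, and 1 with plain UMI scaling, higher in the large intestine. The median was 0.08 without the colon and 0.24 for cells of at least 5% marker UMIs, so it had no stable sign. *SPDEF* had 264, 236 and 202 (small) and 324, 383 and 398 (large) scaled CPM without overlap, but its difference was not past the threshold (log2 difference -0.66 ± 0.23, FDR 0.174). *ATOH1* (log2 difference -0.29 ± 0.28, FDR 0.671), *FOXA3* (log2 difference 0.23 ± 0.22, FDR 0.668) and *KLF4*, a factor of differentiated epithelium (log2 difference 0.38 ± 0.38, FDR 0.686), overlapped between regions. In the Notch list, 1 of 7 genes passed: *JAG2*, a Notch ligand (log2 difference -2.55 ± 0.47, FDR 0.0230), a call lost without duodenum, colon or rectum. Over all genes 1.52% were called in that direction. An unadjusted p under 0.05 was found for 5 of the 7 genes. With plain UMI scaling 2 genes of the list passed, both higher in the large intestine, and with no count filter 2 passed in the small and 1 in the large intestine. The ligands *DLL1* (0.35, FDR 0.653) and *DLL4* (1.05, FDR 0.143) and the Notch target *HES1* (0.29, FDR 0.819) did not pass. *HES1* was lower in goblet cells than in the other epithelial barcodes in all 6 libraries, with 75.7, 121 and 239.8 (small) and 251, 105 and 183 (large) CPM in goblet cells and 149, 257 and 418 (small) and 266, 375 and 265 (large) CPM in the others. The cecum values lay close together. Among genes with at least 10 CPM in a library, the median goblet-over-other ratio was -0.41 log2 units over all genes and -0.43 in the Notch list. A lower plain CPM was thus not particular to *HES1*.

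Genes of the endoplasmic reticulum that fold and load secretory proteins formed the largest list, and 0 of 72 passed by edgeR (1 by DESeq2, and 9 had an unadjusted p under 0.05), while 5 passed without the ileum. Their median log2 difference was 0.37 (0.01 over all genes). With plain UMI scaling it was -0.14, where the median over all genes was -0.48, and in the other alternatives it was 0.14 to 0.54. Plain UMI scaling called 1 gene of the list higher in the small and 3 in the large intestine. With no count filter 4 passed and at the 5% marker threshold 2, all higher in the small intestine. The chaperone *HSPA5* had 978, 2512 and 689 (small) and 574, 547 and 1358 (large) scaled CPM and *CALR*, calreticulin, 2173, 2566 and 1047 (small) and 866, 1045 and 1502 (large), with overlapping regions (FDR 0.52 for *HSPA5* and 0.334 for *CALR*). Of 30 tested genes for granule release and ion transport, 2 were higher in the small and 3 in the large intestine, beside 1.34% and 1.52% of all genes, and 2 and 6 with plain UMI scaling. *GUCA2B*, uroguanylin, had 499, 147 and 58.3 (small) and 31.3, 7.39 and 3.57 (large) scaled CPM (log2 difference 4.80 ± 0.92, FDR 0.0278), and *KCNQ1*, a potassium channel, was also higher in the small intestine (log2 difference 2.66 ± 0.54, FDR 0.0356). *CFTR*, the chloride channel that hydrates mucus (log2 difference -1.70 ± 0.34, FDR 0.0345), *SYT7*, a calcium sensor of exocytosis (log2 difference -1.90 ± 0.40, FDR 0.0388), and *ITPR1*, a calcium release channel (log2 difference -2.82 ± 0.63, FDR 0.0459), were higher in the large intestine. None of these 5 passed in more than 3 of 6 fits that left out a library, and without cecum, colon or rectum 0 of the 30 passed. *GUCA2A*, guanylin, overlapped between regions (log2 difference 0.80 ± 0.42, FDR 0.379).

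Of 21 tested antimicrobial and defense genes, 4 were higher in the small intestine (*REG3G*, both *PLA2G2A* identifiers and *C3*) and 3 in the large intestine (*DEFB1*, *PI3* and *S100A12*, a neutrophil calcium-binding protein, log2 difference -4.90 ± 0.82, FDR 0.0146, lost without duodenum or rectum), with a median of -0.23, beside 1.34% and 1.52% of all genes. With no count filter or plain UMI scaling the counts were 4 and 8, and the median had no fixed sign, at 0.13 without duodenum or jejunum and -0.79 without ileum. Of the 21 genes, 11 had an unadjusted p under 0.05. *S100A12* had 0.340, 0 and 4.86 (small) and 20.9, 25.7 and 80.3 (large) scaled CPM in goblet cells and 0.698, 3.49 and 0.567 (small) and 327, 159.9 and 1279 (large) CPM in the other epithelial barcodes. *BPI*, which binds endotoxin, had 1264, 1192 and 1178 (small) and 292, 1289 and 1081 (large) scaled CPM (log2 difference 0.44 ± 0.44, FDR 0.692) and overlapped. In leukocytes *BPI* reached 2561 CPM in the duodenum, above the 1234 CPM of the goblet cells there. *LYZ1* of the Paneth list was higher in the large intestine, with 167, 264 and 176 (small) and 14550, 1440.0 and 2517 (large) scaled CPM (log2 difference -4.93 ± 0.83, FDR 0.0146), a call lost without the duodenum. *MPTX* did not pass although its regions did not overlap (log2 difference 4.31 ± 1.12, FDR 0.0754), and *LYSB* overlapped (log2 difference 1.28 ± 0.82, FDR 0.487). Of 15 cytokine receptor and signaling genes, 1 passed, the death receptor family member *TNFRSF21* (log2 difference -1.77 ± 0.34, FDR 0.0280), which was lost without duodenum, jejunum, colon or rectum.

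Regional transcription factors were compared with the segment labels. Over all genes 1.34% were called higher in the small and 1.52% in the large intestine. *GATA5*, of the small intestinal list (1 of 3 tested genes higher there), had 29.9, 44.6 and 37.7 (small) and 5.22, 7.39 and 0.892 (large) scaled CPM (log2 difference 2.86 ± 0.46, FDR 0.0126) and passed in all 6 fits that left out a library. *GATA4*, which marks the proximal small intestine, had 83, 34 and 0 (small) and 0, 0 and 0 (large) UMIs and was under the count filter. The large intestinal list, of which 2 of 8 tested genes were higher in the large intestine, summed to 2.66, 34.3 and 219.9 (small) and 336, 236 and 293 (large) CPM, where the ileum lay close to the colon. *HOXA11*, of this list, had 0, 0 and 0 (small) and 1, 74 and 10 (large) UMIs and was higher in the large intestine (log2 difference -7.95 ± 1.10, FDR 0.0125). Without the colon it was not tested, and 0 of the list's 7 tested genes passed. With plain UMI scaling or no count filter, 2 genes of the list passed higher in the small and 4 in the large intestine. Without the ileum 5 passed, all higher in the large intestine. The shared factor *PPARG* was higher in the large intestine (log2 difference -3.09 ± 0.62, FDR 0.0345, passing in 1 of 6 fits that left out a library), while *CDX1* (-0.73, FDR 0.175) and *CDX2* (0.11, FDR 0.952) did not pass.

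Of 30 tested cell division genes, 7 were higher in small intestinal goblet cells, beside 1.34% of all genes called in that direction, and 23 did not pass. An unadjusted p under 0.05 was found for 25 of the 30 (1318 of 7918 over all genes). The median log2 difference was 1.31 (0.01 over all genes), and the summed level of the list was 1237, 1178 and 1144 (small) and 741, 523 and 382 (large) scaled CPM, without overlap between regions. In plain CPM the sums were 1208, 723 and 1073 (small) and 868, 582 and 489.9 (large) and overlapped. The 7 were *PCNA* (log2 difference 1.64 ± 0.25, FDR 0.00967), *AURKB* (log2 difference 2.06 ± 0.34, FDR 0.0141), *UBE2C* (1.76), *CCNB1* (1.87), *PTTG1* (1.98), *NUSAP1* (2.09) and *NDC80* (2.40). *PCNA*, the replication clamp, had 103, 108 and 96.0 (small) and 20.9, 40.1 and 29.4 (large) scaled CPM without overlap. The number passing was 0 without the rectum, 1 without the duodenum, 2 without the colon, 3 without the jejunum or with plain UMI scaling, and 20 with no count filter. At the 5% marker threshold 2 of the genes could be tested, and neither passed. Thinned to 2000 UMIs, *MKI67* or *TOP2A* was seen in 11.9%, 5.21% and 10.7% of small intestinal and 26.7%, 8.93% and 2.53% of large intestinal goblet cells, where the cecum value was 4 of 15 cells, so the share of such cells overlapped. In the stem cell list 1 of 10 genes passed, *SMOC2* (log2 difference 2.23 ± 0.39, FDR 0.0175), lost without duodenum, colon or rectum. *OLFM4*, a crypt progenitor gene, had 88.7, 221 and 573 (small) and 642, 729 and 1016 (large) scaled CPM (log2 difference -1.44 ± 0.55, FDR 0.211).

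The levels of marker lists of other cell types in goblet cells differed between libraries. Calls in these lists stand beside 1.34% of all genes called higher in the small and 1.52% in the large intestine. The Paneth and lysozyme list summed to 114236, 159058 and 120747 (small) and 39282, 34902 and 18640.4 (large) CPM in goblet cells, nearly all of it *PLA2G2A* and *LYZ1*, and to 1336, 2333 and 5642 (small) and 278, 1381 and 500.4 (large) CPM in the other epithelial barcodes. Of its 4 tested identifiers both of *PLA2G2A* were higher in the small and *LYZ1* in the large intestine. *MMP7*, a Paneth cell protease, had 6, 0 and 2 (small) and 0, 0 and 0 (large) UMIs. Enterocyte genes summed to 3008, 1605 and 169.7 (small) and 519, 296 and 275 (large) CPM in goblet cells and 56919, 53571 and 922 (small) and 6456, 3005 and 2742 (large) CPM in the other epithelial barcodes. Of 9 tested enterocyte genes *FABP2*, the intestinal fatty acid binding protein, was higher in the small intestine (log2 difference 7.75 ± 1.52, FDR 0.0326), a call lost in 5 of 6 fits without 1 library. In that direction 2 enterocyte genes passed with DESeq2 and 5 with no count filter. With plain UMI scaling, with stromal barcodes removed or without the ileum 4 passed, and with doublets removed or at the 1% marker threshold 0 passed. Colonocyte genes summed to 11338, 3025 and 12904 (small) and 8126, 5478 and 8929 (large) CPM in goblet cells, most of it *GUCA2A*, and to 2866, 2469 and 5236 (small) and 4809, 3566 and 5691 (large) CPM in the other epithelial barcodes. The 10 tested colonocyte genes gave 1 in each direction, *GUCA2B* and *SLC26A2*, a sulfate transporter (log2 difference -2.17 ± 0.37, FDR 0.0172, lost without duodenum, colon or rectum). Enteroendocrine genes summed to 26.9, 15.2 and 1239 (small) and 18.3, 16 and 9.16 (large) CPM, and the ileum value came mostly from *GCG*, proglucagon, at 1016 CPM. Macrophage, dendritic and neutrophil genes summed to 283, 182 and 35.3 (small) and 48.9, 41.9 and 59.5 (large) CPM, with *C1QA*, *C1QB* and *C1QC* leading in duodenum and jejunum and *CXCR2* at 0 in all libraries. Fibroblast genes summed to 28.5, 159.6 and 10.8 (small) and 128, 16 and 736 (large) CPM, and to 137, 606 and 89.4 (small) and 3389.5, 156 and 3653 (large) CPM in the other epithelial barcodes. T or NK cell genes stayed at 18.3 CPM or less and tuft cell genes at 5.62 CPM or less. The tested macrophage (5), fibroblast (6), enteroendocrine (2) and stress (16) genes had 0 passing in either direction by edgeR. DESeq2 called 1 stress gene, and 4 macrophage, 0 fibroblast, 1 enteroendocrine and 6 stress genes had an unadjusted p under 0.05. Without the ileum 3 macrophage genes and 1 stress gene were higher in the small intestine. The same direction held for 3 macrophage and 5 stress genes with no count filter, for 2 macrophage genes with plain UMI scaling, for 1 with stromal barcodes removed and for 1 stress gene at the 5% marker threshold, while 1 fibroblast gene was higher in the large intestine with plain scaling. A doublet score marked 7.23, 10.9 and 6.40 (small) and 5.32, 4.46 and 6.20 (large) percent of all barcodes within the gene and UMI limits for removal. Among goblet cells it marked 16, 38.5 and 7.94 (small) and 0, 6.11 and 8.54 (large) percent, most in duodenum and jejunum. Without them 88 and 92 genes passed, with 79 and 78 of the original calls among them, and all 24 named genes passed. The part of these other cell types, Paneth cells included, and of doublets in the region differences was otherwise not tested.

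Whether goblet cells differ between regions in the same way as the rest of the epithelium was tested as an interaction, with goblet and other epithelial sums of each library and the library as a block. Of 11030 genes, 29 (0.263%) had a positive and 8 (0.0725%) a negative interaction. A positive value means that the signed log2 difference, small over large, was higher in goblet cells than in the other epithelium. For a gene higher in the large intestine in both, it means a smaller difference in goblet cells. For *CFB* the interaction was 2.79 ± 0.47 (SE, FDR 0.027), for *REG3G* 5.16 ± 0.75 (FDR 0.0172) and for the second *PLA2G2A* identifier 5.10 ± 0.78 (FDR 0.0172). The *REG3G* call was lost without cecum, that of *PLA2G2A* without cecum or colon, and that of *CFB* without cecum or rectum, and all 3 were lost at the 5% marker threshold. The other epithelium had 57.4, 290.4 and 138 (small) and 2.84, 0.356 and 0 (large) CPM of *REG3G*, above the leukocyte levels given earlier in each small intestinal library. *MUC1* (3.11 ± 0.52, FDR 0.027) had 2.00, 4.40 and 0.756 (small) and 133, 50.0 and 117 (large) CPM in the other epithelium. *BCAS1* (2.93 ± 0.38, FDR 0.0167) had 0.605, 0.379 and 1.13 (small) and 5.68, 16.7 and 18.8 (large) CPM there, and *SYTL2*, a granule docking protein (3.30 ± 0.50, FDR 0.0172), had 1.07, 2.43 and 1.32 (small) and 33.2, 25.4 and 37.6 (large) CPM. In the fitted ratios the gap between goblet cells and the other epithelium was smaller in the large intestine for these 3 genes. With a pseudocount of 5 CPM, the log2 ratios of *BCAS1* were 2.54, 1.81 and 2.91 (small) and 2.87, 2.58 and 2.30 (large) and overlapped. The calls of *MUC1* and *SYTL2* were lost without cecum or rectum and that of *BCAS1* without rectum. *DEFB1* (-8.36 ± 1.40, FDR 0.0388) and *DEFB7* (-4.27 ± 0.75, FDR 0.0357) had negative interactions, which DESeq2 did not call (FDR 0.999 for both) and which were each lost in 4 of 6 fits without 1 library. The counts depended on single libraries: without cecum 2 and 1 genes passed, without rectum 4 and 1, without colon 18 and 3, without jejunum 20 and 2, without duodenum 80 and 10, and without ileum 307 and 118. Fibroblast genes in the other epithelium were highest in cecum and rectum. With stromal barcodes removed, 33 positive and 8 negative interactions passed. *REG3G*, the second *PLA2G2A* identifier, *CFB*, *MUC1*, *BCAS1* and *SYTL2* kept their calls in that fit. The part of fibroblasts was not tested beyond it.

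Within each library the goblet cells fell along a range from *TFF3* to *SPINK4*. The cells were split by which gene had more UMIs, a split chosen after the values were seen and given as a description. *TFF3* led in 97, 15 and 17 (small) and 3, 10 and 8 (large) cells, which was 44.3, 7.69 and 13.5 (small) and 18.8, 5.56 and 9.76 (large) percent. In these cells *MPTX* had 27205, 46450.3 and 10.6 (small) and 516, 121 and 12.6 (large) CPM, and in the remaining cells 145497, 157575 and 15075 (small) and 10788, 12935 and 923 (large) CPM. *MPTX* was lower in the *TFF3*-led cells in 6 of 6 libraries, and so were *PLA2G2A* (-2.80 to -1.44 log2 units), *LYSB* (-8.55 to -1.29), *REG4* (-3.72 to -1.06), *BPI* (-3.69 to -1.61), *KLK1* (-5.74 to -1.08) and *CFB* (-3.36 to -0.66). In the 3 small intestinal libraries *REG3G* was lower as well, at 22668, 45633 and 202 CPM against 96558, 143740 and 109966 CPM. *GUCA2A* went the other way in 6 of 6 libraries, with 16307, 9511 and 52148 (small) and 14164, 11224 and 22188 (large) CPM in *TFF3*-led cells and 5871, 2019 and 7181 (small) and 3954, 3971 and 5848 (large) CPM in the rest. *AGR2* differed by -1.64 to 0.19 and *SPDEF* by -0.94 to 1.23 log2 units, with mixed signs. The *TFF3*-led side also held the heparin-binding growth factor *MDK*, the transcription factor *SPIB*, the histone deacetylase *HDAC2* and the Notch modifier *LFNG*, and the other side *SLC6A14*, an amino acid transporter, all chosen after their values were seen. Only 3 cecum, 8 rectal and 10 colon cells were led by *TFF3*, so large intestinal values rest on few cells.

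**Figure D5:**
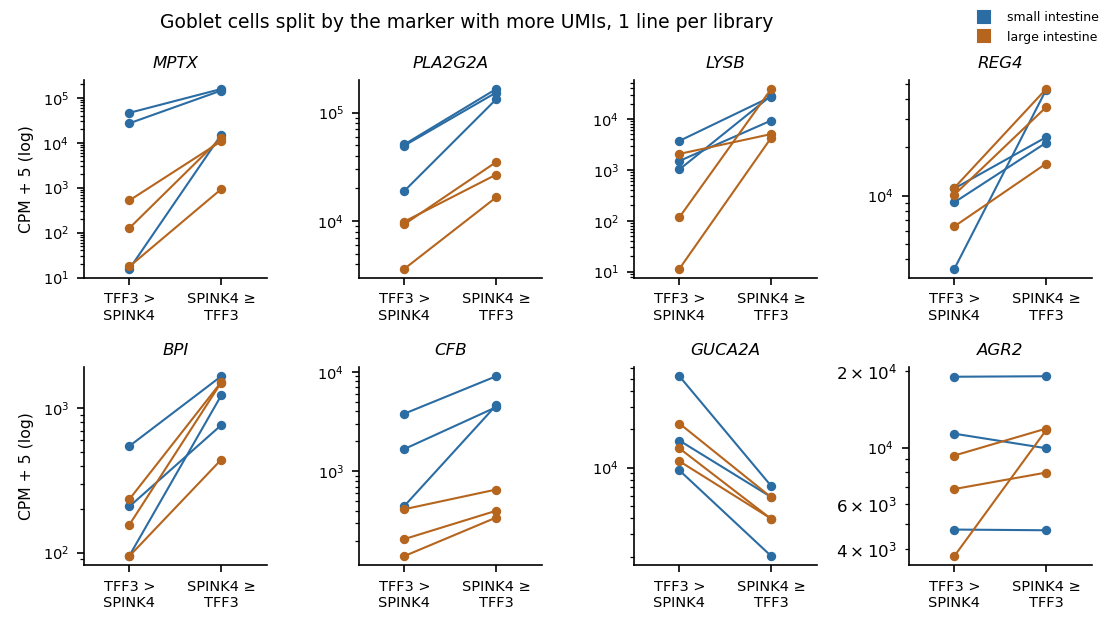
CPM plus 5 on a log axis for 8 genes in goblet cells with more *TFF3* than *SPINK4* UMIs (left of each panel) and in the rest (right), 1 line per library; small intestine in blue, large intestine in orange. *MPTX*, *PLA2G2A*, *LYSB*, *REG4*, *BPI* and *CFB* rise and *GUCA2A* falls from left to right in all 6 libraries, while *AGR2* has no common direction.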

How the data were processed

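Counts were deposited by the authors as whole UMI counts per gene and barcode, without normalization, made with Cell Ranger 3.1.0 on ARS-UCD1.2 according to the submitters' processing notes and the study's methods; the annotation release is not given in the sources used here. Of 27270 identifiers 19730 carried a symbol, and 0 columns of other samples were used. Libraries were grouped by their tissue label. The members, gene lists and tests were chosen with earlier results of these data known.

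UMIs of goblet cells were summed per library and tested with edgeR 4.0.16 (glmQLFit, TMM, filterByExpr; R 4.3.3), with Benjamini-Hochberg adjustment (FDR) at 0.05; DESeq2 1.42.0 was an alternative. The edgeR fits of the region test and of the interaction were checked on simulated data, and DESeq2 was not. The study's test over single cells was not used, since cells are not replicates. Rule genes received no call. Other epithelium was compared per library as a log2 CPM ratio with a pseudocount of 5. Doublets were scored with Scrublet in scanpy 1.11.5 (expected rate rising with the barcode number) and left in; the study's limit of 40% mitochondrial UMIs was an alternative. Shares of cells have Clopper-Pearson 95% intervals, the floor for 0 is 3 counts, and both cover counting error only, as do the counting intervals of ratios.

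Named genes are those of the lists; for the region test, the first 12 per direction by p among called genes with a symbol and no overlap; for the interaction, the first 8 per direction; and the 20 with a symbol whose lowest ratio over the other epithelium was highest. Some of these genes are not reported here. Any other gene is said to be chosen after its values were seen. Alternatives covered scaling, test, count filter, marker threshold, mitochondrial limit, doublets, *EPCAM* threshold and each library left out; plain UMI scaling and removal of barcodes with at least 0.2% stromal UMIs were chosen after seeing the data.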

Additional observations from a re-analysis of the deposited data

Results flagged for a closer look

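The test of whether goblet cells and the other epithelial barcodes differ between regions by the same amount picked out 24 named genes, given here as interaction log2 values. A value is positive where the signed log2 difference, small over large, was higher in goblet cells. For genes higher in the large intestine in both, that is a smaller difference in goblet cells. Defense and complement genes had 5.16 for *REG3G*, 5.10 for the second *PLA2G2A* identifier, 2.79 for *CFB* and 4.00 for *CD55*, the complement decay-accelerating factor. Negative values came from *DEFB7* (-4.27) and *DEFB1* (-8.36). Both defensins were at 0 or 1 UMI in small intestinal goblet cells, and the other ileal epithelium had 38.4 and 8.08 scaled CPM. The *DEFB7* call was lost without jejunum, ileum, cecum or rectum, and the *DEFB1* call without ileum, cecum, colon or rectum. Mucus and transport genes had 3.11 for *MUC1*, 2.93 for *BCAS1*, 3.30 for *SYTL2* and 2.38 for *CA2*, carbonic anhydrase, which was low in goblet cells everywhere. *S100A2* (3.95), a calcium-binding protein, had a mean of 85.3 scaled CPM in small and 424 in large intestinal goblet cells, and 8.97 and 590.2 in the other epithelium. *DOK7* (4.77), *KIF19* (3.60), *MARCKS* (1.59) and *ISG15* (2.26), an interferon-induced gene, were also positive.

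*CCDC80* (6.18), a matrix protein, had 54.9 and 42.2 scaled CPM in the other epithelium of cecum and rectum and at most 7.10 in the remaining 4 libraries. Fibroblast genes were highest in the other epithelium of the same libraries, at 3390 and 3653 CPM. *CCDC80* did not pass with doublets or stromal barcodes removed, at the 5% marker threshold, or without cecum or rectum. Over the 15 alternatives its value ran from 0.662 to 8.92. The part of stromal cells was not tested beyond these fits. *C1QA* (3.34), of macrophages, and *CHGA* (4.91), of enteroendocrine cells, also mark other cell types. *CHGA* had 214 goblet cell UMIs in the ileum and at most 10 elsewhere. Neither gene passed with doublets removed or without cecum, colon or rectum. *C1QA* stayed between 2.66 and 3.56 in all 15 alternatives. *CHGA* was 2.76 with doublets removed and 2.47 at the 1% marker threshold, and did not pass at the 1% or 5% threshold. The part of other cell types in the remaining values was not tested.

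The remaining negative values were *MS4A18* (-4.32), *ATP13A2* (-2.22), *ADTRP* (-2.63), *SLC37A4* (-3.52), the glucose 6-phosphate transporter, *FFAR4* (-10.2), a receptor for long-chain fatty acids, and *DPP4* (-4.06), a brush border peptidase. *FFAR4* had 0, 0 and 0 (small) and 22.6, 13.9 and 17.2 (large) scaled CPM in goblet cells and at most 0.517 in the other epithelium, so the fitted value is no bound. Of the 16 genes first by p-value, 2 passed without cecum, 3 without rectum, 7 without colon, 9 without jejunum and 7 at the 5% marker threshold. Over the 6 fits that left out 1 library, *CA2* and *FFAR4* passed in 1, *KIF19*, *MARCKS*, *ADTRP*, *SLC37A4* and *DPP4* in 2, *ISG15* and *ATP13A2* in 3, *CD55*, *DOK7* and *SYTL2* in 4, and *S100A2* and *MS4A18* in 5. The *CA2* call was also lost with plain UMI scaling, at the 1% and 5% thresholds and with doublets removed, and those of *MARCKS* and *KIF19* with doublets removed. Plain UMI scaling also ended the calls of *ISG15* and *MARCKS*, the 5% threshold those of *CD55*, *DOK7*, *ADTRP*, *FFAR4*, *DPP4*, *DEFB1* and *DEFB7*, and the mitochondrial limit those of *FFAR4* and *DPP4*. *FFAR4* was lost with doublets removed, *DEFB7* at the 1% threshold, and both defensins with DESeq2.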

How the results depend on the processing

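Of the 24 named region genes, all passed with DESeq2, DESeq2 size factors, no count filter, plain UMI scaling, a 1% marker threshold, the mitochondrial limit, doublets removed and stromal barcodes removed. The counts moved more. Genes higher in the small intestine (106) were 465 with no count filter and, without duodenum, jejunum, ileum, cecum, colon or rectum in turn, 53, 50, 204, 61, 30 and 25. Genes higher in the large intestine (120) were 289 with no filter, 438 with plain UMI scaling, 72 at the 5% threshold (which keeps 4 libraries with at least 10 cells) and 43, 47, 161, 76, 38 and 34 with the same libraries left out. Positive interactions (29) were 254 with no filter, 47 with plain scaling, 62 and 74 at the 1% and 5% thresholds, 69 with DESeq2 and 80, 20, 307, 2, 18 and 4 with a library left out. Negative ones (8) were 65, 90 and 24 with no filter, plain scaling and the 5% threshold, and 10, 2, 118, 1, 3 and 1 with a library left out. The difference in goblet cell share (3.39 points) was -1.73 at the 5% threshold, 0.228 to 7.92 with a library left out, and positive in the other alternatives. The cause of these shifts was not tested, beyond the fewer libraries. No paired analysis was possible between small and large intestine because the labels give 1 library per tissue and no replicate number, while the interaction kept the library as a block. The 16 goblet cells of the cecum limit what could be detected there, and calf and segment cannot be told apart.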

Other observations

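Some genes were abundant in the goblet cells of single libraries, each chosen after its values were seen unless it stands in a list above. *ITLN2* (ENSBTAG00000052308), an intelectin, had 1494 UMIs in the rectum and 0 in the other 5 libraries. *LYZ2*, a lysozyme, had 2351 UMIs in the duodenum and at most 10 elsewhere. *GCG* had 1783 UMIs in the ileum and at most 4 elsewhere. *TFF2* reached 34.9% of the UMIs of 1 duodenal cell, while the median duodenal goblet cell had 0.

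*EBD*, the enteric beta-defensin of cattle, gave 0.00106, 0.000727 and 0.415 (small) and 1.41, 1.74 and 2.46 (large) percent of goblet cell UMIs. Its regions did not overlap, and the ileum was the highest small intestinal library, but the difference was not past the threshold (log2 difference -3.40 ± 1.71, FDR 0.359). The other epithelium held 0.474% in the ileum and 0.856% to 2.00% in the large intestine. Thinned to 2000 UMIs, 52.0% of rectal leukocytes had *EBD* too, against 0.476, 0.521 and 90.9 (small) and 100, 99.4 and 100 (large) percent of goblet cells. The unnamed identifier ENSBTAG00000052309 gave 0.0196, 0.0892 and 4.01 (small) and 12.3, 6.43 and 3.46 (large) percent of goblet cell UMIs, with its highest value in the cecum, and the files do not pair it with a symbol.

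Across 7922 genes, which are not independent replicates, the Spearman correlation of goblet cell profiles was 0.785 to 0.916 between libraries of 1 region and 0.721 to 0.876 between regions, so the ranges overlapped. In the small intestine, cells with 0.5% to 1% marker UMIs had 5826 CPM of *AGR2* and 1839 CPM of cell division genes, and cells with at least 5% had 25470.1 and 317, with median UMIs of 15888 and 8251. In the large intestine the same bins had 2681 and 1121 CPM, and 10537 and 265, with median UMIs of 6487 and 18421.5. Of the cells with at least 5%, 43 of 64 in the small intestine were duodenal and 72 of 84 in the large intestine were from the colon, and the part of library and depth in these values was not tested. The threshold used these cells' own marker levels, so this is a description.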
